A study of Gallus gallus with 24 samples.

Results

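In the normal chick ventricle, 160 probe sets were level between left and right at embryonic day 6 (E6) and were more abundant in the right ventricle by day 8 (E8) and, by at least 2-fold, at day 10 (E10). They were chosen from 37693 chicken probe sets (IDs starting Gga) on the deposited log2 values, averaged over the 2 arrays of each pool. The highest pool mean had to reach 6, which 17594 probe sets did. Left minus right had to lie within 0.4 at E6, right minus left had to reach 0.3 at E8 and 1 at E10, and conotruncally banded minus normal E5 had to lie within 0.7. The successive limits left 13615, 1633, 166 and 160 probe sets. Of the 160, 133 carried 1 gene symbol, for 117 different genes, and 27 carried none. The values that chose them, from the normal E5, E6, E8 and E10 pools and the banded E5 pool, are given as a description.

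The series profiled ventricles of chick embryos on a one-colour array in 12 pools, each of 6 to 12 specimens and each split after labelling over 2 arrays. Both ventricles together were pooled from normal embryos at E4, E5 and E6, and left and right ventricles were pooled apart from normal embryos at E6, E8 and E10. The titles of the left E8 and left E10 arrays do not carry the word normal. Those pools were taken as normal because their titles name no operation. The operated embryos were treated in ovo at E4: conotruncal banding, which narrows the outflow of the heart, gave a pool of both ventricles at E5, and partial ligation of the left atrial appendage gave a left and a right pool at E8. Each condition was 1 pool of whole ventricular tissue, no pool is labelled as sham-operated, and the ± values are the SD of 2 technical arrays, so that no difference between pools could be tested.

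The embryonic ventricles share a common tube, and the left and right chambers grow from different sets of progenitors that meet during looping. As development goes on, the spongy trabecular muscle gives way to compact wall while fibroblasts, valve tissue and vessels are added. Left atrial ligation in the chick sends blood away from the left ventricle, which stays small, and loads the right, and for that reason it is used as a model of left heart hypoplasia.

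The side labels could be checked on TBX5, a T-box factor of the left ventricle. Its probe set Gga.961.1.S1_at read 7.07 on the left and 7.15 on the right at E6, 8.03 and 5.71 at E8, 6.76 and 4.56 at E10, and 8.84 and 6.84 in the ligated pair. The left was thus higher in the 3 later pairs, whereas at E6 this probe set gave no check on the sides. The summed level of 31 ventricular muscle probe sets lay between 18.85 and 19.11 in the 12 pools, a sum led by its brightest probe sets. Of the 31, 2 were at least 2-fold higher in the right at E10, both for TTN, and 0 in the left (3.48% and 2.48% of the 17594). Array medians over the chicken probe sets lay between 4.23 and 4.41, and the median SD of duplicate arrays over the 160 probe sets and 12 pools was 0.0735.

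The bias grew in most of the 160 and was already 2-fold at E8 in a minority. Median right minus left was 0.09 at E6, 0.80 at E8 and 1.36 at E10, against 0.01, 0.01 and -0.05 over the 17594. At E10 the 160 ran from 1.0004 to 4.83, where the rule required at least 1, and 3.48% of the 17594 were at least 2-fold higher in the right. At E8, 55 of the 160 were at least 2-fold higher in the right, against 2.83% of the 17594. In 28 the E8 difference was larger than the E10 difference (60.5% of the 17594), a count that the higher E10 limit of the rule holds down. The largest E8 difference of the 160 was that of GDF10, a secreted ligand of the TGF-beta family, with 4.24 at E8 and 1.63 at E10. In bulk tissue, more cells of a type and more RNA per cell cannot be told apart. The median right minus left of the hybridisation spike controls, given below, also rose from E6 to E10, and its part was not tested.

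**Figure D1:**
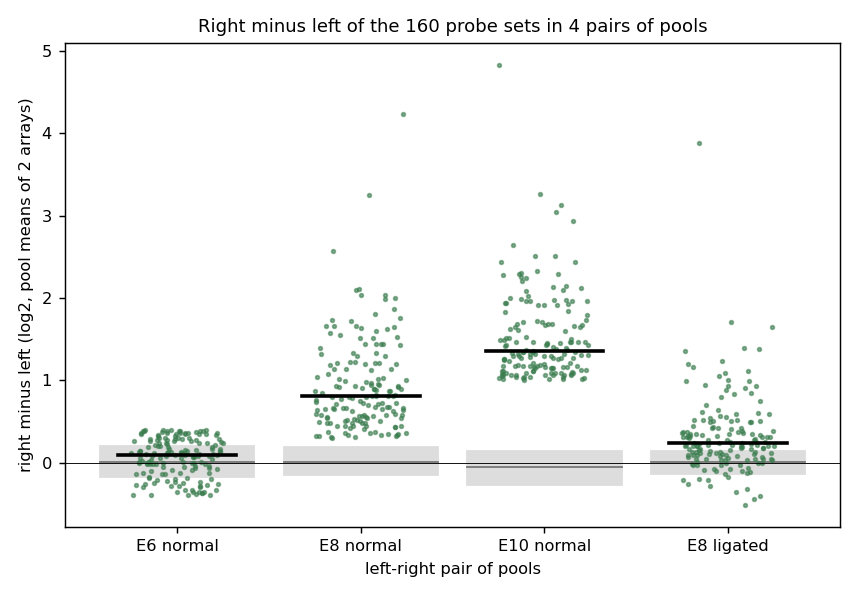
Right minus left on the log2 scale (y axis) in the normal E6, E8 and E10 pairs and the ligated E8 pair (x axis). Each point is 1 of the 160 probe sets, the black line their median (0.09, 0.80, 1.36 and 0.23), and the grey box the quartiles and median of the 17594.

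The limits cut through a continuous range. ITSN1 was just inside the E6 window at 0.395 and MAP9 just outside it at 0.401. NR2C2 passed the E8 limit at 0.303 and WWC3 missed it at 0.296. At E10, CASK stood at 1.0004 and Gga.19054.1.S1_at at 0.9988. For the level, RORA reached 6.01 and NAV3 5.95, and for banding PLAG1 differed by 0.63 and Gga.16022.1.S1_at by 0.71.

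At the 2-fold limit, a falling left was more frequent than a rising right. From E6 to E10 the left level fell at least 2-fold in 70 of the 160 (5.19% of the 17594 fell so), and the right level rose at least 2-fold in 43 (5.21% of the 17594). No probe set did both, and 47 did neither. In 133 members the mean of the left and right E6 pools lay within 2-fold of the E6 pool of both ventricles. Among these 133 the counts were closer, with 49 left falls and 40 right rises. Of the 160, the right fell at least 2-fold in 8 (6.6% of the 17594) and the left rose in 8 (5.47%). The left changed by -0.85 at the median and the right by 0.45, against -0.03 and -0.06 over the 17594. The E6 and E10 pools were both used in choosing, so the right had to gain on the left. A 2-fold change of either side was not required, and the split between a falling left and a rising right is a description.

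At any size, the right was higher at E10 than at E6 in 127 of the 160 (44.1% of the 17594) and the left was lower in 133 (53.5%). The right was higher and the left lower in 100 (16.1% of the 17594), both were higher in 27 (28%), and both were lower in 33 (37.5%). The left change was the larger part of the gain in 98, whose left and right changes together were a net fall. The right change was the larger part in 62, with a net rise. A net fall was found in 55.3% of the 17594 and a net rise in 44.7%. The 17594 were not limited to probe sets with a gain in the right, so no conclusion is drawn from the split. In the left the larger median step came late, -0.39 from E6 to E8 and -0.53 from E8 to E10, and in the right it came early, 0.33 and then 0.17. The left E10 pool was the lowest of the 6 normal single-ventricle pools in 119 of the 160 (17.2% of the 17594), and the right E10 pool was the highest of all 12 pools in 88 (11.2%). The E10 limit of the rule favours both.

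**Figure D2:**
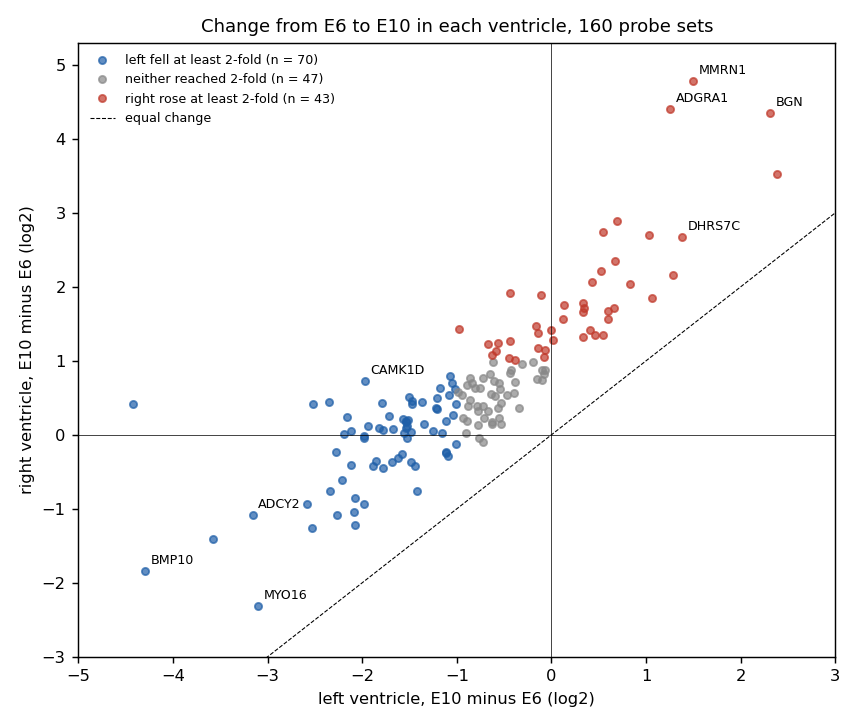
Change from E6 to E10 in the left (x axis) and in the right ventricle (y axis), both log2, for each of the 160 probe sets, coloured by whether the right rose at least 2-fold (43), the left fell at least 2-fold (70) or neither (47). The dashed line marks equal change on both sides, and every point lies above it because the rule required the right to gain.

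In the 43 probe sets whose right level rose, the left moved either way. Their median change was 1.66 in the right and 0.34 in the left, and the left was higher at E10 than at E6 in 27 of them and lower in 16, with a lowest change of -0.98. The probe sets named from here on are those with the largest changes or biases, those in gene lists on heart cell types and pathways, and some added after their values were seen.

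Secreted and matrix genes of this class are given first. MMRN1 encodes multimerin, a large glycoprotein of platelets and endothelium. It read between 2.12 and 2.16 in the 4 pools of both ventricles, in both E6 single-ventricle pools, in the left E8 pool and in the ligated left pool. The level was 5.41 in the right at E8, 3.66 ± 0.91 (left) and 6.92 ± 0.17 (right) at E10, and 3.29 in the ligated right. The right was above the left in the 3 later pairs, and the 2 left E10 arrays lay far apart. MMRN1 had the largest rise in the right, 4.78.

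BGN encodes biglycan, a small leucine-rich proteoglycan of the matrix. It lay between 1.95 and 2.11 in all pools up to E6, then read 2.19 (left) and 4.18 (right) at E8, 4.42 and 6.36 at E10, and 2.24 and 3.89 in the ligated pair. The right was higher in the 3 later pairs by 1.996, 1.94 and 1.65, and from E6 to E10 both sides rose, by 4.35 in the right and 2.31 in the left. The other 3 BGN probe sets stayed below the level minimum of 6 and are dim, with right minus left between 0.03 and 0.71 at E10.

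GDF10 read between 2.51 and 2.87 in the pools up to E6. It was 2.53 (left) and 6.77 ± 0.40 (right) at E8, 2.53 and 4.16 ± 0.22 at E10, and 2.74 and 6.63 ± 0.49 in the ligated pair. Left and right arrays were far apart in all 3 pairs, and the right peak was at E8.

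ADAMTSL1 encodes a secreted ADAMTS-like protein without the protease part. Its member GgaAffx.24607.4.S1_s_at read 4.87 and 4.99 in left and right at E6, 5.57 and 8.14 at E8, 7.25 and 8.51 at E10, and 5.43 and 7.13 in the ligated pair. The other member, Gga.14683.1.S1_s_at, had a right minus left of 1.52 at E8, 2.15 at E10 and 1.39 in the ligated pair. Another bright probe set of the gene, Gga.14504.1.S1_at, failed the rule because it was already biased at E6, by 1.85, and its later differences were 1.75, 1.23 and 1.12.

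OGN, osteoglycin, another small leucine-rich proteoglycan, was 3.30 ± 0.65 at E4 and 8.95 at E5. It read 7.97 and 8.16 in left and right at E6, 9.38 and 10.57 at E8, 9.25 and 10.32 at E10, and 8.80 and 9.32 in the ligated pair. FAP, a membrane serine protease of activated fibroblasts, had 2 members. GgaAffx.23453.2.S1_s_at read 5.77 and 5.91 at E6, 5.97 and 7.52 at E8, 6.11 and 7.63 at E10, and 6.48 and 6.78 after ligation. In both genes the normal right stood apart from E8 on, and the ligated pair was closer together. C7, a complement component, read 5.68 and 5.81 at E6, 6.18 and 7.62 at E8, 6.51 and 7.85 at E10, and 6.65 and 7.89 after ligation, a gap of 1.44 in the normal E8 pair and 1.24 in the ligated pair.

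The rising class also held genes of membranes and of muscle. ADGRA1, an adhesion G protein-coupled receptor, lay between 2.57 and 2.62 up to E6 and read 3.84 (left) and 4.15 (right) at E8, 3.87 ± 0.81 and 7.004 at E10, and 2.62 and 2.67 in the ligated pair. Its bias of 3.13 thus appeared between E8 and E10. PLXNA4, a semaphorin receptor, read 3.40 and 3.64 at E6, 4.57 and 5.90 at E8, 3.95 and 6.38 at E10, and 4.42 and 4.71 after ligation. ATP2B4, a calcium pump of the plasma membrane, read 11.51 and 11.52 at E6, 12.22 and 12.55 at E8, 11.37 and 12.89 at E10, and 11.18 and 10.97 after ligation. DHRS7C, a dehydrogenase of the sarcoplasmic reticulum in striated muscle, rose on both sides, the left reading 8.17 at E6 and 9.56 at E10 and the right 8.32 and 10.99.

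**Figure D3:**
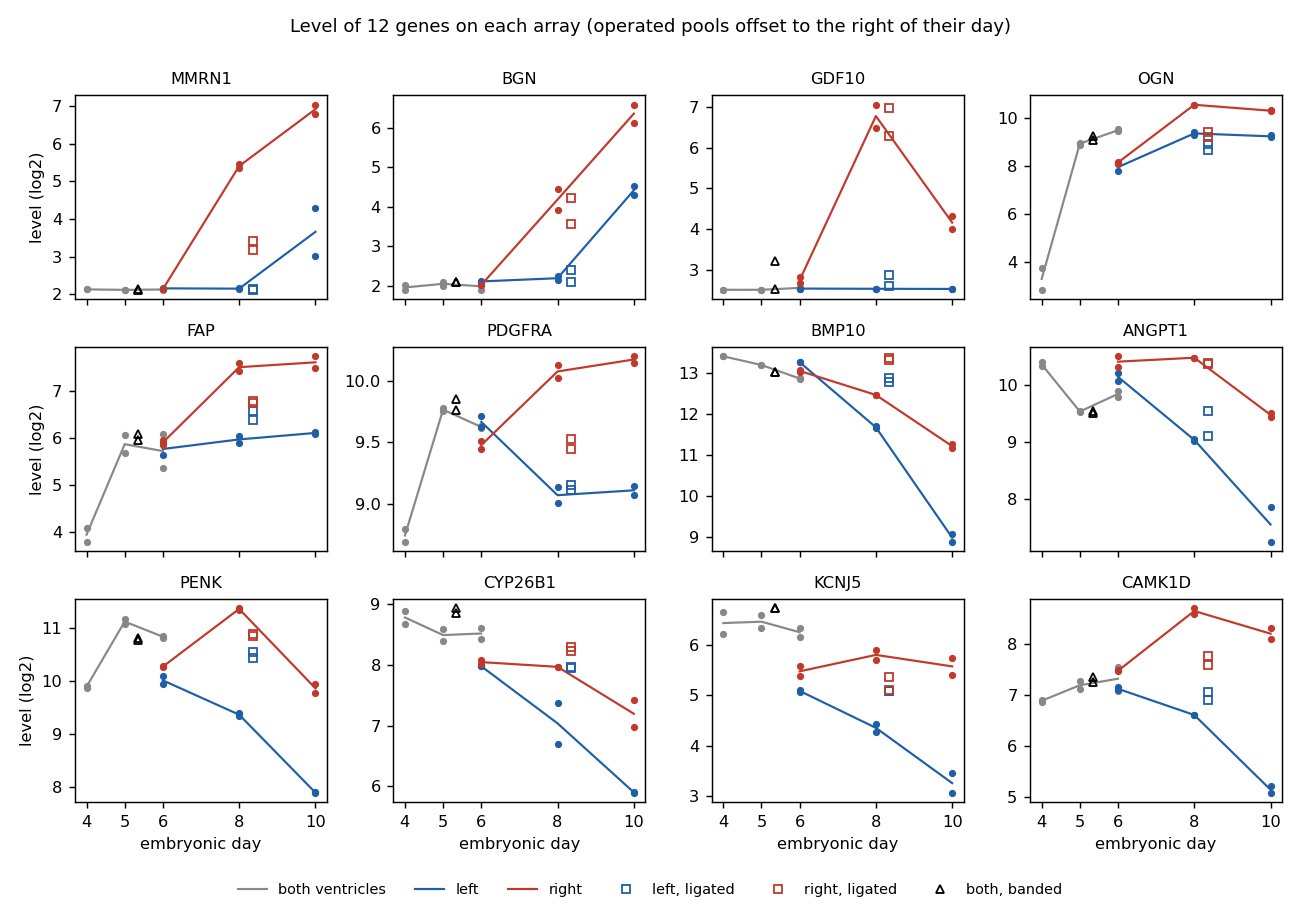
Deposited log2 level (y axis, scaled per panel) of 12 genes by embryonic day (x axis), 1 point per array with lines through the normal pool means (grey both ventricles, blue left, red right), open squares for the ligated and triangles for the banded pool. MMRN1 and BGN climb in the right up to E10 and GDF10 peaks there at E8, whereas BMP10, ANGPT1 and PENK fall in the left.

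In the 70 probe sets whose left level fell, the right was close to level at the median. The left changed by -1.60 at the median and the right by 0.05. The right was lower at E10 than at E6 in 31 of them, by at least 2-fold in 8, and higher in 39.

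BMP10 is a BMP ligand that, in the mouse embryo, is made by trabecular heart muscle and is needed for its growth. It lay between 12.87 and 13.41 in the 4 pools of both ventricles and read 13.27 (left) and 13.05 (right) at E6. The level was then 11.67 and 12.46 at E8 and 8.97 ± 0.13 and 11.21 ± 0.07 at E10. The left fell by 4.29, and the right, which fell by 1.84, moved less. In the ligated pair BMP10 read 12.83 and 13.34, above both normal E8 pools. It was the only member in a list of 17 bright TGF-beta and BMP probe sets, of which 2 were at least 2-fold higher in the right at E10 and 0 in the left (3.48% and 2.48% of the 17594). The other of the 2 was BMP2, left out because its E6 difference was already 0.86. BMP2 read 7.86 and 9.97 at E8, 6.05 and 8.61 at E10, and 9.19 and 9.57 after ligation. The list's median right minus left at E10 was 0.18, beside -0.05 over the 17594.

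ANGPT1, angiopoietin-1, is a ligand of the endothelial receptor TEK (Tie2) and in the mouse heart is made by muscle cells. Its member GgaAffx.10259.1.S1_at read 10.15 and 10.41 in left and right at E6, 9.04 and 10.48 at E8, 7.56 ± 0.42 and 9.48 at E10, and 9.33 and 10.38 in the ligated pair. The second member, Gga.9471.1.S1_at, read 10.25 and 10.55, 9.23 and 10.83, 8.04 and 9.95, and 9.34 and 10.34 in the same order. Both probe sets thus showed the same course, with a difference of 1.92 and 1.91 at E10. They were the 2 members in a list of 9 bright probe sets on hypoxia and angiogenesis, in which no other was at least 2-fold higher in the right at E10.

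PENK, the precursor of the enkephalin peptides, read 10.01 and 10.27 at E6, 9.36 and 11.35 at E8, 7.89 and 9.86 at E10, and 10.48 and 10.86 after ligation. CYP26B1, an enzyme that breaks down retinoic acid, read 7.97 and 8.04 at E6, 7.04 and 7.96 at E8, 5.90 and 7.19 at E10, and 7.95 and 8.26 after ligation. In both genes the left fell by about 2 on the log2 scale, by 2.12 for PENK and 2.07 for CYP26B1. Of 8 bright probe sets in the retinoic acid list, CYP26B1 was the only member and the only one at least 2-fold higher in the right at E10.

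Further genes whose left fell encode a channel and signalling enzymes. KCNJ5, a subunit of the G protein-gated inward rectifier potassium channel, read 5.08 and 5.47 at E6, 4.35 and 5.80 at E8, 3.26 and 5.57 at E10, and 5.08 and 5.23 after ligation on GgaAffx.23423.1.S1_at. CAMK1D, a calcium/calmodulin-dependent kinase, read 7.12 and 7.47 at E6, 6.61 and 8.64 at E8, 5.15 and 8.20 at E10, and 6.98 and 7.68 after ligation. The right was therefore nearly level from E6 to E10 in KCNJ5 and 0.73 higher in CAMK1D. ADCY2, an adenylyl cyclase, fell on both sides, with changes of -3.16 (left) and -1.09 (right). MYO16, an unconventional myosin, did so too, with -3.10 and -2.32. At E10 the left read 3.98 for ADCY2 and 3.55 for MYO16. The largest bias and left fall of the 160 belonged to Gga.13240.1.S1_at, which carries no gene symbol. It read 8.20 and 8.20 at E6, 6.38 and 7.77 at E8, 3.78 and 8.62 at E10, and 7.34 and 7.58 after ligation.

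Among the 47 probe sets that neither rose nor fell at least 2-fold, the median change was 0.56 in the right and -0.63 in the left. PDGFRA, the receptor for PDGF-A on fibroblast precursors, was one. It read 9.67 and 9.48 at E6, 9.07 and 10.08 at E8, 9.11 and 10.17 at E10, and 9.13 and 9.48 after ligation. PDGFRA was the only member among 27 bright probe sets in a list on fibroblasts and valve mesenchyme. Of the 27, 5 were at least 2-fold higher in the right at E10 and 0 in the left (3.48% and 2.48% of the 17594). The summed level of that list at E10 was 17.22 for the left and 17.26 for the right. MFAP5, a protein of elastic microfibrils, read 7.02 and 7.08 at E6, 5.82 and 7.15 at E8, 6.59 and 7.91 at E10, and 6.84 and 7.46 after ligation.

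Other cell types were read through their marker lists, none of which but the fibroblast list held a member. The endocardium and endothelium list, 20 bright probe sets, summed at E10 to 15.02 for the left and 15.19 for the right. Of the 20, 3 were at least 2-fold higher in the right at E10 and 0 in the left (3.48% and 2.48% of the 17594). The 3 comprised LYVE1 and both NPR3 probe sets. The epicardium list, 4 probe sets, summed to 13.58 and 13.86 with no such difference on either side. The list of right ventricle, outflow tract and second heart field held 6 bright probe sets. Of the 6, 2 were at least 2-fold higher in the right at E10 and 0 in the left. Its median right minus left was 0.30 at E6, -0.09 at E8, 0.29 at E10 and 0.23 in the ligated pair. The atrial muscle list, 3 probe sets, summed to 14.12 and 13.7 at E10 with 1 such difference on each side. Lists of few probe sets also differed between the sides. The neural crest and nerve list, 2 probe sets, summed to 9.31 (left) and 10.79 (right) at E10, and its median right minus left was 1.56 there and -0.40 in the ligated pair. The leukocyte list, 8 probe sets, had a median right minus left of 0.57 at E6, 1.27 at E8, 0.42 at E10 and 0.60 in the ligated pair. Its sum at E10 was 11.98 for the left and 11.84 for the right, with no 2-fold difference on either side. The smooth muscle list, 3 probe sets, had a median right minus left of -0.26 at E6, 0.62 at E8, 0.21 at E10 and -0.01 in the ligated pair. The part of these cell types in the bias was not tested. The 9 hybridisation spike controls, bacterial and phage transcripts added to every sample, had a median right minus left of -1.42 at E6, -0.36 at E8, 0.74 at E10 and -0.14 in the ligated pair. Their part in the result was not tested. Centring every array on its median left 124 of the 160 members, all of them among the 160.

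In the ligated hearts at E8, the median right bias was smaller than in the normal E8 pair. The ligated pools were not used in choosing, except that they counted towards the highest pool mean. Median right minus left over the 160 was 0.23 in the ligated pair, from -0.51 to 3.89, against 0.00 over the 17594 and 0.80 for the 160 in the normal E8 pair. Of the 160, 12 were at least 2-fold higher in the ligated right (0.875% of the 17594) and 0 in the ligated left (1.04%). Leaving out the arrays numbered 2, with members chosen again, the count of 12 became 22. With a floor of 4 on low values it became 9. Without members under 4 in the left E10 pool or in both E6 single-ventricle pools it became 8. In 69 the right was higher by at least 0.3 (10.4% of the 17594), and in 28 the left was higher (49.2%). The ligated difference was as large as the normal E8 difference or larger in 8 (44.9% of the 17594), a count that choosing on the normal E8 difference holds down.

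Choosing on the normal E8 difference raises that difference, so the drop was set beside probe sets chosen at E8 alone. The 2801 other bright probe sets with a normal E8 bias of at least 0.3 had a median of 0.50 in the normal pair and 0.20 in the ligated pair, and 4.25% of them were at least 2-fold higher in the ligated right. The mirror-image set, 126 probe sets that gained left bias under the same limits with the sides exchanged, had a median left minus right of 0.69 in the normal E8 pair and 0.50 in the ligated pair, and 20 of them were at least 2-fold higher in the ligated left. These values are descriptions of single pools, and the differences between the sets were not tested.

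**Figure D4:**
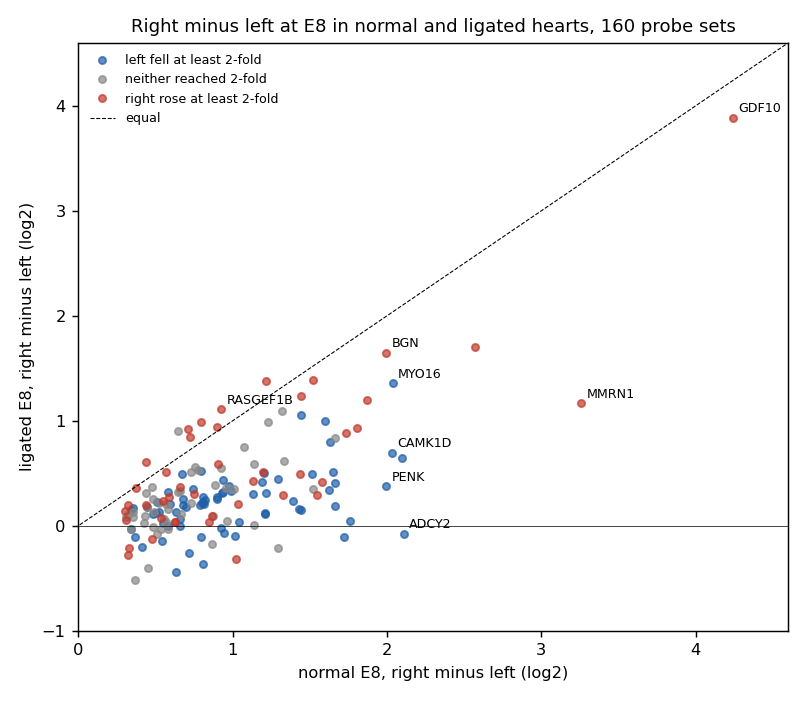
Right minus left in the normal E8 pair (x axis) and the ligated E8 pair (y axis), both log2, for each of the 160 probe sets, coloured by whether the right rose, the left fell or neither reached 2-fold. The dashed line marks equal differences, and all but 8 points lie below it, with GDF10 (4.24 and 3.89) far along it.

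The genes with a 2-fold right bias in the ligated pair were mostly of the rising class. Of the 12, 9 came from the 43 whose right level rose, 2 from the 70 whose left fell and 1 from the remaining 47. They were GDF10 (3.89), both ADAMTSL1 probe sets (1.70 and 1.39), BGN (1.65), MYO16 (1.36), C7 (1.24), LOC421125 (1.19), MMRN1 (1.16), RASGEF1B (1.11), SEC24D (1.09), ANGPT1 (1.05) and the unnamed Gga.4196.2.S1_at (1.38). RASGEF1B had 0.93 in the normal E8 pair and the others at least 1. Other bright probe sets of SEC24D had 0.25, 0.43 and 0.31 in the ligated pair, and those of MYO16 had 1.18 and 0.37. These MYO16 probe sets were already higher in the right at E6, by 0.72 and 0.89, and had 0.08 and 0.76 at E10. The median ligated difference was 0.42 in the rising class, 0.21 in the left-falling class and 0.18 in the rest. The lowest values were those of KIF1B, a kinesin, at -0.51, ASAP1, an ARF GTPase-activating protein, at -0.44, CCSER1 at -0.41 and LRFN5, a synaptic adhesion protein, at -0.36. Other bright probe sets of KIF1B had -0.60 and -0.35 in the ligated pair. The first of them was already higher in the left in normal hearts, with -0.64 at E6, -0.71 at E8 and 0.17 at E10. The second had 0.31, 0.20 and 0.89 in the same order. The other bright probe set of ASAP1 had 0.145 there and that of LRFN5 0.13, so for these genes the sign differed between probe sets. Across the 160 probe sets, Pearson r between the E10 bias and the ligated difference was 0.01 and Spearman rho was -0.04. The probe sets share the same arrays and the rule cut the E10 bias off at 1, so no conclusion is drawn. The median ligated difference was 0.45 in the 55 members with a normal E8 bias of at least 1. In the 31 members with a normal E8 bias under 0.5 it was 0.10. The E8 bias was also used in choosing, so these values are a description.

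Set against the normal E8 pools of the same side, the ligated right was lower more often than the ligated left was higher. The median change with ligation was -0.49 in the right and 0.09 in the left, against -0.003 and 0.01 over the 17594, and the left value was -0.01 without the arrays numbered 2. The right was lower at any size in 138 of the 160 (50.6% of the 17594) and the left higher in 87 (51.3%). By at least 2-fold, the right was lower in 24 (2.14% of the 17594) and higher in 0 (1.74%). By the same measure, the left was higher in 10 (2.38%) and lower in 6 (1.71%). The normal E8 pools chose the members, so these changes are descriptions.

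Counts by class follow, and the difference between classes was not tested. Of the 24 that were lower in the ligated right, 13 were of the rising class, 7 of the left-falling class and 4 of the rest. They included MMRN1, lower by 2.11 on the log2 scale, NFAT5, a transcription factor of the osmotic stress response, with -1.68, ATP2B4 with -1.58, TNPO1, a nuclear import receptor, with -1.55, and ADCY2 with -1.40. All 6 that were lower in the ligated left were also lower in the ligated right, and ATP2B4 (-1.04 in the left) and ADGRA1 (-1.22 in the left, -1.47 in the right) were among them. Of the 10 that were higher in the ligated left, 8 were of the left-falling class. These 10 included BMP10 with 1.15, PENK with 1.12, both probe sets of GFPT2, an enzyme of hexosamine synthesis, with 1.15 each, CPNE8, a copine, with 1.498, and MFAP5 with 1.02.

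Liver transcripts also differed in the ligated pools. The summed level of 5 liver probe sets, which include albumin and transthyretin, was 13.21 in the ligated left and 12.28 in the ligated right, against 10.90 and 11.12 in the normal E8 pair. None of the 160 is in that list, and its part in the ligated differences was not tested.

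Before the chambers were sampled apart, the 160 showed little common movement. The median change was -0.01 from E4 to E5 and 0.17 from E5 to E6, and banded minus normal E5, which the rule held within 0.7, had a median of -0.01. Of the 160, 17 were at least 2-fold higher at E5 than at E4 (3.1% of the 17594) and 2 were lower (1.23%). OGN was among the 17.

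The E6 pools disagreed by pool kind for some of the 160. The mean of the left and right E6 pools was at least 2-fold above the E6 pool of both ventricles in 25 of them (1.55% of the 17594) and at least 2-fold below it in 2 (1.73%), and at any size it was above in 110 (45.9%). By their labels, the 2 kinds of pool hold the same normal tissue, and the summed liver list read 12.27 in the pool of both against 11.35 (left) and 10.66 (right). The part of either gap in the bias was not tested. Of the 25, 21 were of the left-falling class and 1 of the rising class, and their median left change from E6 to E10 was -1.72. The mean of left and right minus the pool of both had a median of 0.48 in the left-falling class. It was 0.02 in the rising class and 0.38 in the rest. Gga.13240.1.S1_at read 4.50 in the E6 pool of both and 8.20 in each single-ventricle pool. UBXN7, an adaptor of the p97 segregase, read 7.44 ± 0.27 in the E6 pool of both and 9.05 and 9.19 in left and right on Gga.10997.1.S1_s_at, then 8.63 and 9.08 at E8, 6.70 and 9.64 at E10, and 8.59 and 8.77 after ligation. Without the 25 and the 2, the median left change over 133 probe sets was -0.71, with 49 whose left fell and 40 whose right rose.

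Other probe sets of the same genes had smaller biases at the median. For 76 of the genes, 136 further probe sets passed the level minimum without being members. Of these, 111 were higher in the right at E10, 24 by at least 2-fold, and 0 were at least 2-fold higher in the left. Their median right minus left was 0.27 at E8, 0.42 at E10 and 0.10 in the ligated pair, below the 0.80, 1.36 and 0.23 of the members. The 16 genes with 2 members each differed by 0.104 at the median between their probe sets at E10. Both probe sets of each pair had to pass the same E10 limit, so this closeness is a description and not a replication. Members and other bright probe sets of the same gene that failed the rule were chosen by the value compared here, so a gap between them is a description.

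Wide gaps between probe sets of a gene were found in UBXN7, USP9Y and CDC73, 3 of the genes that stood apart in the E6 pools. UBXN7 had members at 2.94 and 2.51 at E10, and its other bright probe set, Gga.11881.1.S1_a_at, had -0.004. USP9Y, annotated as a deubiquitinase, had 2.51 in its member and 0.04 and 0.36 in the other bright probe sets. The USP9Y symbol comes from the platform annotation and was not checked. CDC73, a subunit of the PAF1 transcription elongation complex, had 2.32 against 0.00 and 0.33. PLXNA4, outside that group, had 2.43 against 0.02 and -0.15. By contrast RIMBP2, a protein known from presynaptic terminals, had 2.64 against 1.75 and 0.58, KCNJ5 had 2.31 and 2.20 against 0.67, and TNFRSF19, a receptor of the TNF family, had 1.79 and 1.32 against 0.84, all in the same direction. In 30 of the 76 genes, these 4 included, every other bright probe set was below 0.5 at E10. Further examples were BLCAP with 2.03 against -0.30, DDOST with 1.71 against -0.30 and BRAF with 1.60 against -0.30. The other PLXNA4 probe sets were higher in the right at E6, by 0.64 and 0.67, and at E8, by 0.64 and 0.69. For these genes the E10 bias is given as a value of the named probe sets.

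**Figure D5:**
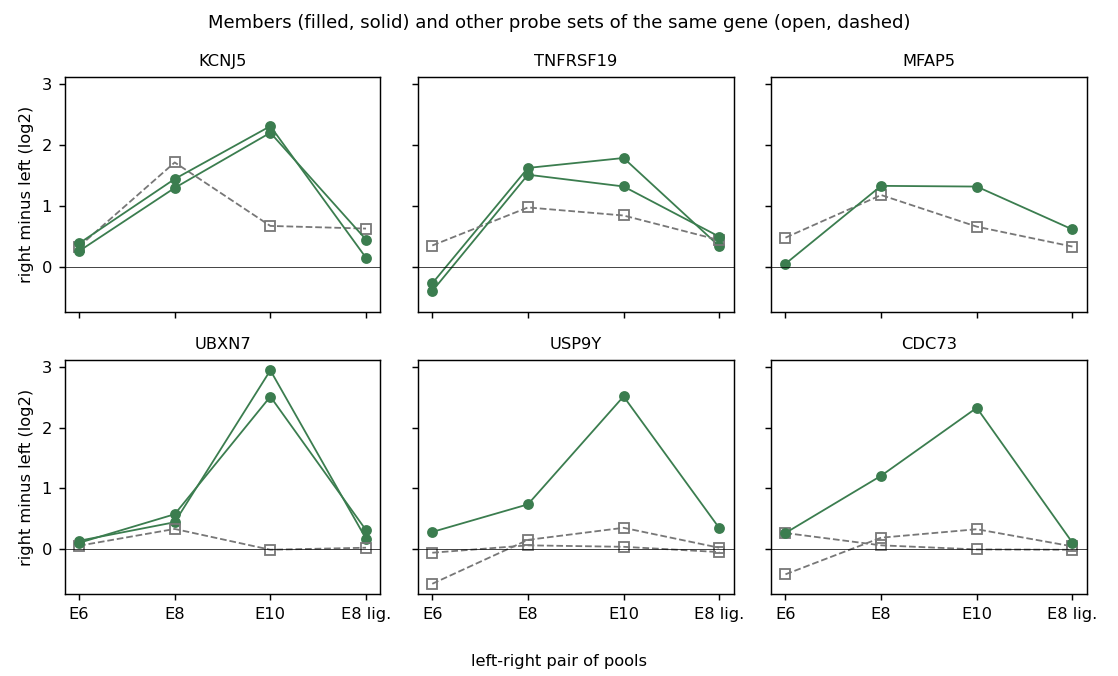
Right minus left (y axis, log2) in the 4 pairs of pools (x axis) for every probe set of 6 genes that passed the level minimum, members filled with solid lines and others open with dashed lines. At E10 the members of UBXN7, USP9Y and CDC73 stand at 2.3 or more while the other probe sets of those genes lie at 0.36 or less.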

How the data were processed

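Labelled ventricular RNA of 12 pools was hybridised to 24 one-colour arrays, 2 for each pool. The table the authors deposited holds log2 values for 38535 probe sets, between 0.14 and 16.09; the log2 scale was read from that range. The tools named, per the submitters' processing notes, are GCRMA and MAS5. Neither a version nor the tool behind this table is given in the sources used here. GCRMA presses dim probe sets towards a floor, so if it was the tool, folds from levels under 4 depend on that floor. The number of arrays limits the precision.

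Values were used as deposited. Columns were assigned to pools by their labels, and the left E8 and left E10 columns, whose titles name no operation, were taken as normal. The 2 arrays of a pool, technical duplicates, were averaged (n = 1 pool per condition). No test was made: with 1 pool per condition none exists between pools, and duplicate arrays measure hybridisation only. A change was called at 2-fold or more between pool means. Shares of the 17594 chicken probe sets with a highest pool mean of at least 6 served as background. The members and gene lists were chosen with earlier results of these data known. Named were the members with the 10 largest E10 biases, the 6 largest right rises, the 6 largest left falls, the 4 highest and 4 lowest ligated differences, members of the gene lists, and unnamed probe sets at the extremes; others were named after their values were seen.

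Symbols came from GEO's platform annotation, updated through RefSeq gene numbers (130 of 160 members looked up, assembly GRCg7b). Of all chicken probe sets, 27166 had 1 symbol, 177 several and 10350 none. The 96 AFFX control probe sets were left out. Marker lists were summed on the linear scale and given as log2. Python 3.11.15, pandas 2.3.3, numpy 2.4.6 and matplotlib 3.10.9 were used. The code of the selection was run on simulated data with planted members. That simulation held array noise and no variation between pools of the same tissue, so it checked the code and not the members. Alternatives changed the normalization, centring, floor, arrays, limits and fold.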

Additional observations from a re-analysis of the deposited data

How the results depend on the processing

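Over 9 results, 121 alternative values stayed close to the main value, 22 moved and 1 reversed. Close meant within 1.5-fold for a count. For a median it meant a shift smaller than the typical spread of a single member between duplicate arrays, 0.10 to 0.12. The spread of a median over all members was not computed. By these wide limits, member counts of 124 and 232 were still close to 160, and a ligated median of 0.32 was still close to 0.23. No paired analysis was possible because array numbers mark technical duplicates of 1 pool and no comparison has a test. Requiring an E10 difference of 1.5 left 59 members, 18 right rises, 39 left falls, 6 ligated 2-fold differences, a median left change of -1.47 and a median right response to ligation of -0.62. An E6 window of 0.2 left 76 members, 20 right rises, 31 left falls and 6 ligated differences. A level minimum of 7 gave 27 right rises, and an E10 limit of 0.8 a median left change of -0.74. At 1.5-fold there were 69 right rises and 30 ligated differences, and at 3-fold 22, 35 left falls and 3. Choosing on arrays 1 and reading arrays 2 gave a median left change of -0.73, and the reverse a right response to ligation of -0.39. Leaving out each array number in turn gave 161 to 172 members, 42 to 53 right rises, 67 to 70 left falls, median changes of 0.46 to 0.58 in the right and -0.84 to -0.79 in the left, ligated medians of 0.19 to 0.32 with 14 to 22 ligated 2-fold differences, and responses to ligation of -0.0058 to 0.0921 in the left and -0.54 to -0.50 in the right; the left response turned sign, and the ligated count reached 22, without the arrays numbered 2. The members within 2-fold between the kinds of E6 pool, an alternative chosen after seeing the data, had a median left change of -0.71. The cause of these shifts was not tested, beyond fewer probe sets passing stricter limits. Quantile normalization gave 152 members (144 shared with the 160), a floor of 4 gave 157 (155 shared). Chosen on array 1 or array 2 alone there were 172 (123 shared) and 161 (111 shared). Dim levels limit the folds of MMRN1, BGN, GDF10, ADGRA1 and PLXNA4. They also limit the left falls of ADCY2, MYO16, KCNJ5 (GgaAffx.23423.1.S1_at) and Gga.13240.1.S1_at, which ended under 4. Of the members, 9 lay under 4 in the left E10 pool and 6 in both E6 single-ventricle pools.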
